A study of Mus musculus with 10 samples.

Results

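The transcripts of *Xirp1*, *Xirp2*, *Ankrd1*, *Ankrd2*, *Ankrd23*, *Csrp3*, *Fhl2* and *Nrap* were followed in mouse hearts. These are 8 of the 54532 genes in the deposited table, chosen by name as Xin-repeat, muscle ankyrin-repeat and LIM genes known for their response to stretch. All hearts came from *Rit1* M90I/+ mice, which are heterozygous for a variant of the small GTPase RIT1 that is found in Noonan syndrome, a disorder in which the heart is often enlarged. According to the study's methods, males with a conditional *Rit1* M90I allele were crossed to females of a cytomegalovirus-Cre deleter line, so the variant is in the germline rather than in heart muscle alone. The vehicle group (n = 5) received the dosing solution only. The MEKi group (n = 5) received trametinib, an allosteric inhibitor of the kinases MEK1 and MEK2, at 1 mg/kg once a day. Treatment ran for 20 weeks from 4 weeks of age, so all mice were 24 weeks old at the end. Male and female littermates were included, the labels used here give no sex for a heart, and no wild-type heart was analysed. Per the methods, a last dose came on the morning of the end point, shortly before the mice were killed. The comparison asks how these transcripts stood after long MEK inhibition in hearts that carry the variant, and it does not separate effects of the last dose from long-term ones.

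The proteins are part of the machinery by which a heart muscle cell carries and senses force. The sarcomere is anchored at Z-discs and, at the cell's ends, at intercalated discs, and the giant protein titin spans it as a spring. *Xirp1* and *Xirp2* encode Xin actin-binding repeat proteins of the intercalated disc. *Ankrd1*, *Ankrd2* and *Ankrd23* encode the muscle ankyrin-repeat proteins, which bind the spring region of titin and can also be found in the nucleus. *Csrp3* encodes muscle LIM protein of the Z-disc, *Fhl2* a LIM-only protein of the sarcomere and nucleus, and *Nrap* a LIM and nebulin-repeat protein that takes part in myofibril assembly. Transcripts of this kind, *Ankrd1* above all, are known to rise in hearts under pressure or volume load.

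The hearts had from 13647167 to 18474002 fragments assigned to genes (median, 15215992). Levels are FPKM, the number of fragments scaled to gene length and to the library size that the authors used. Defining transcripts of heart muscle were abundant in every heart, with 7 cardiomyocyte markers summing to between 14976 and 20802 FPKM. *Xist*, the transcript of the inactive X chromosome, ranged from 5.16 to 6.85 FPKM with MEKi and reached no more than 0.00662 FPKM with vehicle, and no MEKi heart held a fragment of the Y-linked *Ddx3y*, *Eif2s3y*, *Kdm5d* or *Uty*. Sex-linked transcripts thus divided the hearts exactly as treatment did, and the 2 cannot be told apart for any gene below. The summed level of 6 atrial markers was 898 FPKM in vehicle heart 4, 423 FPKM in vehicle heart 5 and 740 FPKM in MEKi heart 2, against 13.7 to 59.0 FPKM in the others, so the members' estimates are also given without these 3 hearts. Mitochondrial genes took between 24.7 and 35.0% of the fragments in the vehicle group, the highest share being in vehicle heart 3, and no more than 28.7% in the MEKi group. In whole tissue, fewer cells of a type and less RNA per cell cannot be told apart.

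Promoters are shown for the genes whose levels are described most closely below. RefSeq sequence (build GRCm38.p6) was at hand for 7 of the 8 genes, all but *Xirp1*, and the 250 bases before each start were searched on both strands for 8 motifs of factors that act in heart muscle. Capitals mark the matches. The *Xirp2* promoter is shown because this gene had the smallest p of the set, and the *Nrap* promoter because *Nrap* was among the 3 genes with the lowest estimates. They lie at chr2:67445752-67446001 (plus strand) and chr19:56390039-56390288 (minus strand), and neither overlaps an annotated exon.
Xirp2 promoter: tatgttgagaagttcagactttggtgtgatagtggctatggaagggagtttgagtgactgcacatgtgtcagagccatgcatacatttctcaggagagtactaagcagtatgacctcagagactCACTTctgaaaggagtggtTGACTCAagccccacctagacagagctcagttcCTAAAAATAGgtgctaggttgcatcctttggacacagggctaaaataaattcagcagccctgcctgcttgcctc
Nrap promoter: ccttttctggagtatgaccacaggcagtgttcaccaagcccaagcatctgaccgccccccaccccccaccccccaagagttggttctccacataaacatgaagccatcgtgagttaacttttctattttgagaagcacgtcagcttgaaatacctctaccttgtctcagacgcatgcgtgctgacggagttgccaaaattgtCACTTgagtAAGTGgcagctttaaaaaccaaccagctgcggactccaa
*Xirp2* had a core of the NKX2-5 site (AAGTG, read on the other strand) from base -126, counted back from the start, an AP-1 site (TGANTCA) at -107 and a MEF2 site at -74. *Nrap* had a pair of NKX2-5 cores at -48 and -39. Of 32841 promoters of this length, 2.92% held a MEF2 site, 6.75% an AP-1 site and 40.7% an NKX2-5 core, so the NKX2-5 match is a common one.

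For *Ankrd1* and *Fhl2*, windows of 30 bases around their M-CAT motifs (CATTCC, bound by TEAD factors) and CArG boxes (bound by SRF) are shown, because these factors are the ones best known for answering stretch and actin signals. The *Ankrd1* windows are at chr19:36120037-36120066 and chr19:36119950-36119979, and those of the 2 *Fhl2* starts at chr1:43196838-43196867 and chr1:43163973-43164002, all on the minus strand. In GENCODE M21, annotated exons cover all 250 bases searched before *Ankrd1* and 223 of the 250 before the first *Fhl2* start, and none before the second *Fhl2* start.
Ankrd1 upstream M-CAT: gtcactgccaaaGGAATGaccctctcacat
Ankrd1 downstream M-CAT: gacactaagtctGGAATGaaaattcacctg
Fhl2 first start, CArG box: catttagagaCCAAAAAAGGcttgcaggag
Fhl2 second start, CArG box: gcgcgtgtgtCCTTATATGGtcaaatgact
The M-CAT motif stood in 12.6% of all promoters and the CArG box in 1.47%. *Ankrd23* also held an M-CAT motif before its second start, *Ankrd2* a TATA box (TATAAA) and *Csrp3* an NKX2-5 core. A GATA core (GATAA), present in 22.6% of promoters, was found before *Ankrd1*, *Ankrd23* and *Fhl2*. The first *Fhl2* start also had a MEF2 site at -31, within which a TATA box lay. None of the 7 held the ETS site CCGGAA, which was in 12% of promoters. A match describes these letters only and says nothing of binding.

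The 8 transcripts covered a wide range of levels per length. By their mean over the 10 hearts, *Fhl2* (955 FPKM), *Ankrd1* (706 FPKM) and *Csrp3* (534 FPKM) ranked 50th, 69th and 92nd of all genes. *Nrap* followed at 91.1 FPKM, then *Xirp2* at 25.8 FPKM, *Xirp1* at 21.9 FPKM, *Ankrd23* at 3.89 FPKM and *Ankrd2* at 0.287 FPKM. The order held in all 10 hearts for 4 of the 7 neighbouring pairs. *Fhl2* was above *Ankrd1* in 9 hearts, *Ankrd1* above *Csrp3* in 8, and *Xirp2* above *Xirp1* in 8, so these neighbours were not separated beyond their spread. The length used for *Ankrd1* in the deposited table was 1765 bases, whereas its exons in GENCODE M21 cover 2886 bases, which makes its place among the first 3 depend on the annotation.

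Between the groups, the largest differences in the set were lower means of *Xirp2* and *Ankrd1* in MEKi hearts, with *Nrap* next and *Csrp3*, *Ankrd23*, *Xirp1* and *Fhl2* within 0.12 of 0 on the log2 scale. No member had an adjusted p under 0.05 in the comparison across the 12602 genes tested (limma on log2(FPKM + 0.1), two-sided, Benjamini-Hochberg adjustment), where 0.0794% of genes did. The genes that did included the sex-linked *Xist*, *Ddx3y*, *Eif2s3y* and *Uty*, and also autosomal genes. One of the 7 members tested, *Xirp2*, had an unadjusted p under 0.05, against 7.62% of all genes. No member had groups that did not overlap, against 1.64% of all genes. The estimates of 6 of the 7 lay below 0 (4 of 7 on the TPM scale) and their median was −0.11, beside 47.9% of all genes below 0 and a median of 0.011. *Ankrd2*, at a mean under 0.5 FPKM, was not part of this fit. Fold changes on this scale understate differences of genes with low levels. The labels call the hearts biological replicates.

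**Figure D1:**
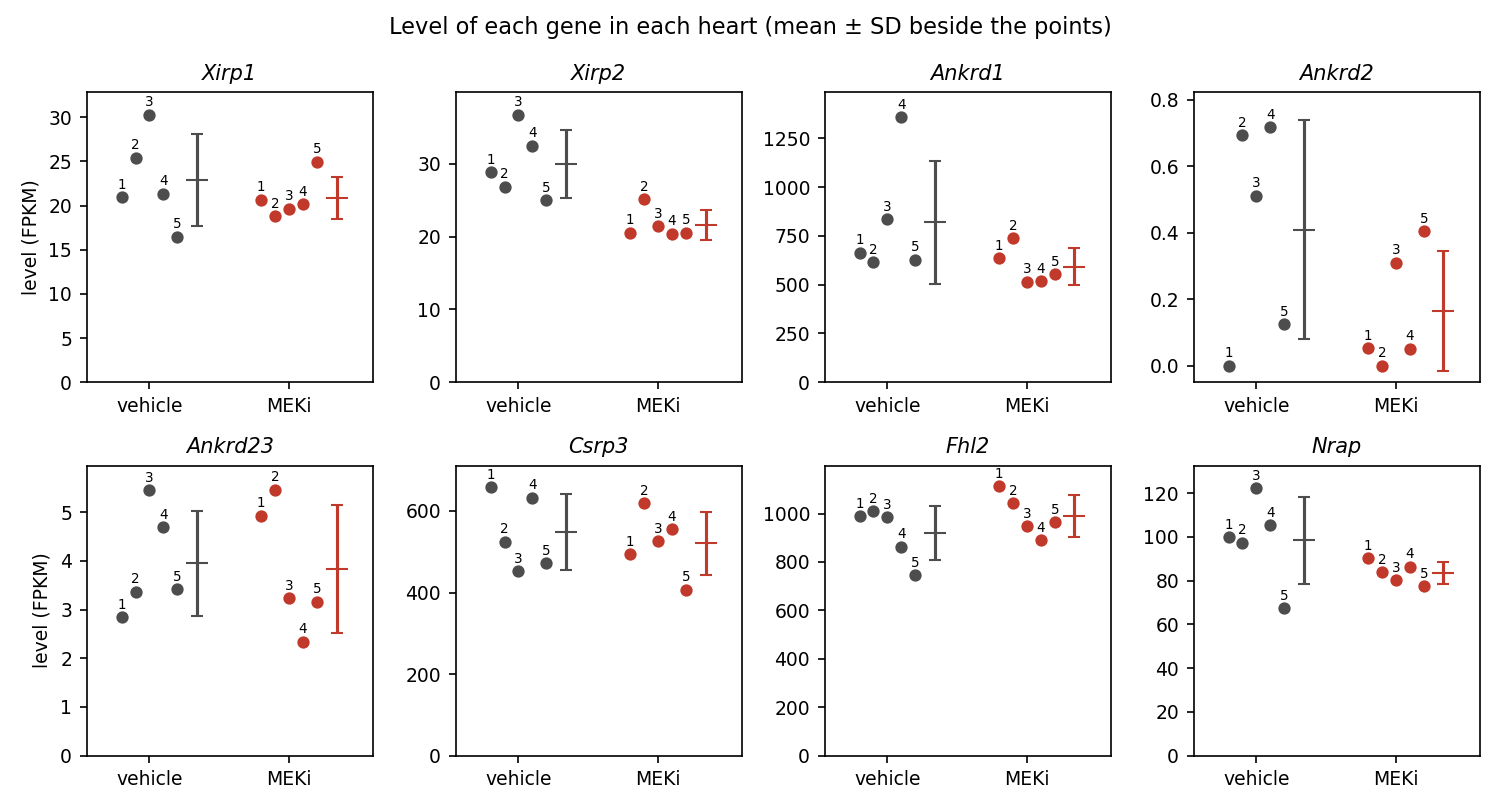
Level of each of the 8 genes (vertical axes, FPKM, each panel with its own scale) in the 5 vehicle hearts (grey) and 5 MEKi hearts (red), with the replicate number above each point and the mean ± SD at its side. For *Xirp2*, 4 MEKi hearts lie below all vehicle hearts, and for *Ankrd1* vehicle heart 4 stands alone at 1361 FPKM.

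Among the Xin-repeat genes, *Xirp2* (chromosome 2, 67446002 to 67526614, plus strand) was at 28.9, 26.9, 36.7, 32.5 and 25.0 FPKM in vehicle hearts 1 to 5 and at 20.5, 25.1, 21.4, 20.4 and 20.5 FPKM in MEKi hearts 1 to 5. MEKi hearts 1, 3, 4 and 5 lay within about 1 FPKM of each other and below every vehicle heart, while MEKi heart 2 overlapped vehicle heart 5. The means were 30.0 ± 4.67 and 21.6 ± 2.02 FPKM (SD, n = 5 each), so the log2 fold change was −0.46 (SE 0.114, 95% interval −0.712 to −0.214). Its limma p was 0.00165, the 65th smallest of all genes, and its adjusted p was 0.314. The estimate was between −0.57 and −0.39 under 23 other ways of processing the data or leaving out hearts, with adjusted p between 0.192 and 0.716. It was −0.56 with vehicle hearts 4 and 5 and MEKi heart 2 left out.

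*Xirp1* (chromosome 9, 120013755 to 120023598, minus strand), whose protein binds actin and the N-cadherin complex at the intercalated disc, was at 20.9, 25.4, 30.3, 21.4 and 16.5 FPKM in vehicle hearts 1 to 5. In MEKi hearts 1 to 5 it was at 20.7, 18.8, 19.7, 20.2 and 24.9 FPKM. Every MEKi heart lay inside the range of the vehicle hearts. The means of 22.9 ± 5.21 and 20.9 ± 2.39 FPKM (SD, n = 5 each) gave a log2 fold change of −0.11 (SE 0.149, 95% interval −0.437 to 0.214, limma adjusted p = 0.900). It ran from −0.22 without vehicle heart 5 to −0.0037 without vehicle heart 3, and was −0.25 without the 3 hearts. The 2 relatives were also set against each other within each heart, a comparison chosen after their values were seen. The ratio of *Xirp2* to *Xirp1* was 1.34 ± 0.202 in vehicle hearts and 1.05 ± 0.187 in MEKi hearts (SD, n = 5 each; two-sided exact permutation p = 0.0556, adjusted p = 0.167 over 3 such ratios), so a difference between the 2 genes was not established. The other ratios were those of *Ankrd1* to *Ankrd23* (209 ± 54.0 against 164 ± 36.9, SD, n = 5 each; exact permutation p = 0.151, adjusted p = 0.226) and of *Csrp3* to *Fhl2* (0.601 ± 0.111 against 0.528 ± 0.0900, SD, n = 5 each; exact permutation p = 0.286, adjusted p = 0.286).

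Of the ankyrin-repeat genes, *Ankrd1* (chromosome 19, 36111965 to 36119844, minus strand) was at 664, 614, 835, 1361 and 628 FPKM in vehicle hearts 1 to 5. In MEKi hearts 1 to 5 it was at 637, 738, 515, 518 and 553 FPKM. MEKi hearts 3, 4 and 5 were below every vehicle heart, MEKi hearts 1 and 2 were not, and vehicle heart 4 was far above the other 9. The means were 820 ± 315 and 592 ± 95.1 FPKM (SD, n = 5 each), so the log2 fold change was −0.41 (SE 0.210, 95% interval −0.872 to 0.0444, limma adjusted p = 0.673). Without vehicle heart 4 the log2 fold change was −0.21 (limma adjusted p = 0.777), and without the 3 hearts it was −0.33. Vehicle heart 4 was also the heart with the highest level of 5 of 10 other load transcripts, among them *Nppa* at 1298 FPKM and *Nppb* at 1379 FPKM, which encode natriuretic peptides, and with the highest sum of the atrial markers. Their part in its *Ankrd1* level was not tested.

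*Ankrd23* (chromosome 1, 36530188 to 36536883, minus strand) was at 2.84, 3.37, 5.45, 4.69 and 3.41 FPKM in vehicle hearts 1 to 5 and at 4.93, 5.47, 3.23, 2.34 and 3.16 FPKM in MEKi hearts 1 to 5. The groups overlapped almost fully, with means of 3.95 ± 1.08 and 3.83 ± 1.31 FPKM (SD, n = 5 each; log2 fold change −0.072, 95% interval −0.595 to 0.452, limma adjusted p = 0.963). The log2 fold change was −0.18 without the 3 hearts. These values rest on 113 to 253 fragments. In GENCODE M21, 78.2% of the 2697 exonic bases of *Ankrd23* are shared with *Gm42417* on the same strand, which is listed at 0 in every heart, so the level of *Ankrd23* is uncertain. *Ankrd2* (chromosome 19, 42036038 to 42045110, plus strand), known mainly from slow skeletal muscle, had only 0 to 11 fragments a heart. It was at 0, 0.694, 0.512, 0.718 and 0.125 FPKM in vehicle hearts 1 to 5 and at 0.0530, 0, 0.309, 0.0508 and 0.405 FPKM in MEKi hearts 1 to 5, where the 2 values of 0 allow up to 3 fragments (counting error only). Means of 0.410 ± 0.330 and 0.164 ± 0.181 FPKM did not differ detectably at this depth (SD, n = 5 each; two-sided exact permutation p = 0.167, the smallest possible being 0.00794). The 8 skeletal muscle markers summed to between 0.813 and 3.36 FPKM, with *Myh2* and *Myh4* at 0 in every heart.

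Among the LIM genes, *Csrp3* and *Fhl2* overlapped widely between the groups and *Nrap* did so through a single heart. *Csrp3* (chromosome 7, 48830398 to 48848033, minus strand) was at 659, 524, 452, 632 and 471 FPKM in vehicle hearts 1 to 5 and at 494, 618, 527, 556 and 407 FPKM in MEKi hearts 1 to 5. The means of 548 ± 93.4 and 520 ± 78.1 FPKM (SD, n = 5 each) differed by −0.071 on the log2 scale (95% interval −0.383 to 0.241, limma adjusted p = 0.939), or by −0.13 without the 3 hearts. *Fhl2* (chromosome 1, 43123074 to 43196984, minus strand) was at 990, 1009, 985, 864 and 747 FPKM in vehicle hearts 1 to 5 and at 1112, 1043, 947, 890 and 963 FPKM in MEKi hearts 1 to 5. It was the one member with a higher mean in the MEKi group, 991 ± 87.1 against 919 ± 112 FPKM (SD, n = 5 each; log2 fold change 0.11, 95% interval −0.134 to 0.362, limma adjusted p = 0.847). Its log2 fold change was 0.041 without vehicle heart 5 alone and −0.029 without the 3 hearts.

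*Nrap* (chromosome 19, 56320035 to 56390037, minus strand) was at 99.8, 97.4, 122, 106 and 67.5 FPKM in vehicle hearts 1 to 5. In MEKi hearts 1 to 5 it was at 90.2, 83.9, 80.3, 86.4 and 77.5 FPKM. Vehicle hearts 1 to 4 were above every MEKi heart, and vehicle heart 5 was below them all. The means of 98.5 ± 19.9 and 83.7 ± 5.01 FPKM (SD, n = 5 each) gave a log2 fold change of −0.21 (SE 0.138, 95% interval −0.512 to 0.0890, limma adjusted p = 0.757). Without vehicle heart 5 it was −0.34 (limma adjusted p = 0.450), and without vehicle heart 3 it was −0.13 (limma adjusted p = 0.785). Without the 3 hearts it was −0.34 (limma adjusted p = 0.743). Exons of other genes on the opposite strand cover 6.83% of the exonic bases of *Nrap* and 1.40% of those of *Xirp2*, and reads of the 2 strands cannot be told apart there without a stated strand setting. Vehicle heart 5 had the lowest level of *Xirp1*, *Xirp2*, *Fhl2* and *Nrap* in the vehicle group. In the same heart the 5 fibroblast markers summed to 223 FPKM against 141 to 161 FPKM in the other vehicle hearts. Its endothelial, macrophage and smooth muscle markers also had their highest sums of the vehicle group, at 138, 169 and 69.8 FPKM. The 7 cardiomyocyte markers summed to 15146 FPKM there, the lowest of the vehicle group, and to 14976 FPKM in MEKi heart 5. The part of these markers in the levels of the members was not tested.

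**Figure D2:**
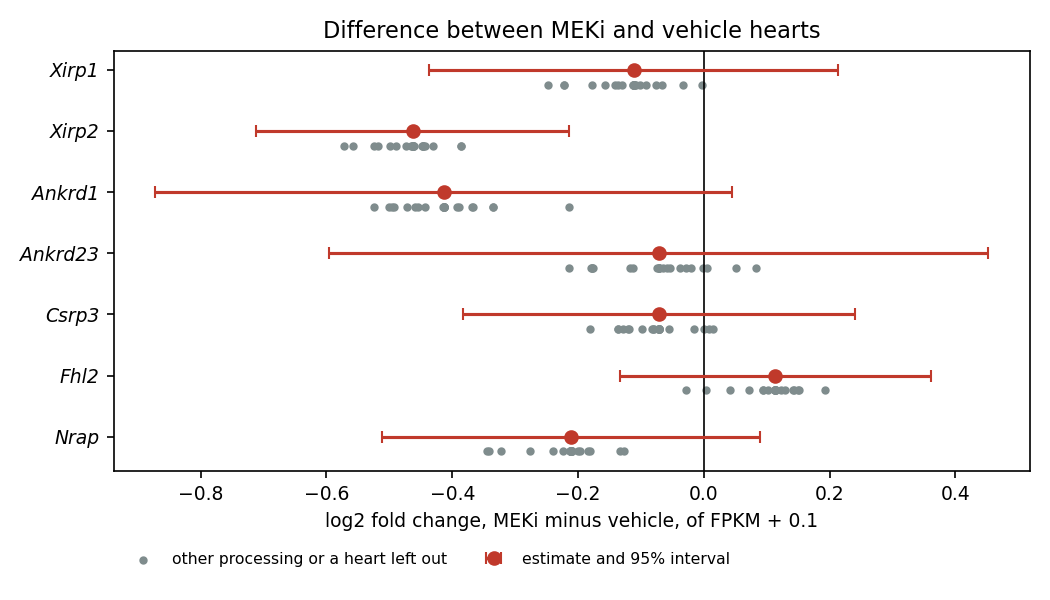
Log2 fold change of each tested gene, MEKi minus vehicle (horizontal axis, on FPKM + 0.1), with its 95% interval in red and the estimates under the alternatives as grey points below it. The interval of *Xirp2* alone leaves out 0, while *Ankrd23*, *Csrp3* and *Fhl2* have estimates on both sides of 0.

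Hearts of the vehicle group varied more than MEKi hearts. The SD of log2 levels was smaller in the MEKi group for 6 of the 7 members tested, *Ankrd23* being the exception, and for 68.1% of all genes tested. For *Nrap* it was 0.0863 in MEKi hearts and 0.317 in vehicle hearts, for *Ankrd1* 0.223 and 0.481, and for *Xirp2* 0.127 and 0.220. The range of the members' profiles in single hearts was wide: vehicle heart 3, with 35.0% mitochondrial fragments, had the highest *Xirp1*, *Xirp2* and *Nrap* of all 10 hearts, vehicle heart 4 the highest *Ankrd1*, and MEKi heart 2, just above vehicle heart 3, the highest *Ankrd23*. The part of the mitochondrial share in these levels was not tested.

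**Figure D3:**
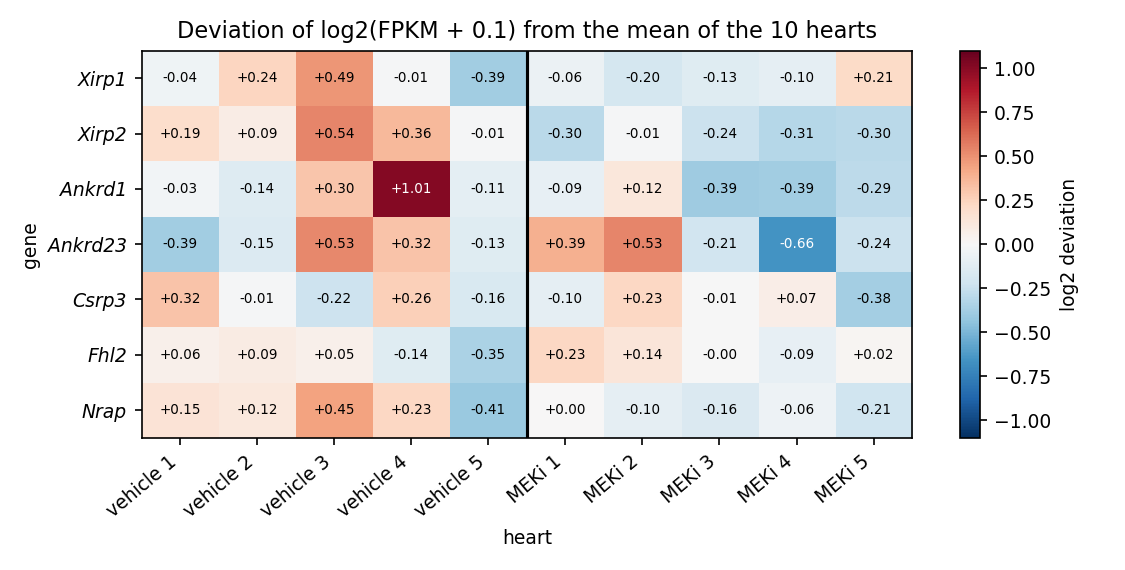
Log2(FPKM + 0.1) of the 7 tested genes (rows) in each of the 10 hearts (columns, vehicle on the left and MEKi on the right of the line) as the deviation from the gene's mean over all hearts (colour and number, log2). Vehicle hearts 3 and 4 are red in most rows, *Xirp2* is at or below 0 in all 5 MEKi hearts, and *Fhl2* and *Csrp3* show no such split.

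Across the 10 hearts the 8 genes varied together only in part. Over their 28 pairs the median Pearson r of log2(FPKM + 0.1) was 0.349 (range, −0.383 to 0.753), and 22 pairs had a positive r. The highest was that of *Xirp2* and *Ankrd1* (r = 0.753, permutation p = 0.00794, and rho = 0.782, permutation p = 0.00982). After adjustment over the 28 pairs these were p = 0.187 and p = 0.272 by permutation, and no pair passed 0.05. For *Xirp2* and *Ankrd1*, r was 0.650 without the 2 hearts farthest from the median of *Xirp2*, 0.640 within the vehicle group and 0.766 within the MEKi group. *Xirp2* and *Nrap* came next (r = 0.741, permutation p = 0.0134, adjusted p = 0.187, and rho = 0.721, permutation p = 0.0230, adjusted p = 0.272). Their r was 0.350 without the same 2 hearts, 0.876 within the vehicle group and −0.053 within the MEKi group. For *Xirp1* and *Nrap* (r = 0.718, permutation p = 0.0205, adjusted p = 0.191, and rho = 0.673, permutation p = 0.0399, adjusted p = 0.272), r was 0.107 without the 2 hearts farthest from the median of *Xirp1*, 0.877 within the vehicle group and −0.516 within the MEKi group. As deviations from the group means over all 10 hearts it was 0.705. Leaving out the 2 farthest hearts narrows the range of *Xirp1*, so the lower r cannot show whether the relation rests on them. A positive relation was not seen within the MEKi group.

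Among the 5155 other genes whose mean reached 5 FPKM, those most like each member over the 10 hearts were picked by Pearson r, as a description. They were *Btbd1*, *Mrpl10* and *Lpgat1* for *Xirp1* (r = 0.954, 0.950 and 0.950), *Tusc2*, *Cdc5l* and *Ptdss1* for *Xirp2* (r = 0.888, 0.853 and 0.848), and *Gm2962*, *Tusc2* and *Myl1* for *Ankrd1* (r = 0.833, 0.811 and 0.806). *Tusc2* was thus on the lists of both *Xirp2* and *Ankrd1*. These r pool the 2 groups and so include any difference between them. As deviations from the group means, r was 0.817, 0.702 and 0.638 for the genes of *Xirp2* and 0.771, 0.726 and 0.734 for those of *Ankrd1*. It was 0.954, 0.958 and 0.961 for those of *Xirp1*. For *Csrp3* they were *Myl12a*, *Arl4d* and *Tst* (r = 0.978, 0.962 and 0.946), for *Fhl2* *Nt5c3b*, *Ppp2r1a* and *Irx4* (r = 0.890, 0.888 and 0.880), and for *Nrap* *Zfp106*, *Ldb3* and *Cavin4* (r = 0.903, 0.886 and 0.876). *Ldb3* encodes a Z-disc protein and *Cavin4* a muscle protein of the cell membrane. For *Ankrd23* they were *Diaph1*, *Fbxo11* and *Sorbs2* (r = 0.866, 0.834 and 0.829), and for *Ankrd2*, at very low counts, *Phospho2*, *Plpp3* and *Usp8* (r = 0.914, 0.895 and 0.889).

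The genes around the set were taken from 4 lists, and no gene of any list had an adjusted p under 0.05. Of the 19 Z-disc and intercalated disc partners, which include titin and α-actinin, 18 passed the filter, with 9 lower and 9 higher in MEKi hearts and a median log2 fold change of 0.0077, which was −0.10 with 12 lower when scaled to the cardiomyocyte markers and 0.086 with 14 higher on the TPM scale. The 3 with the smallest p were *Trim63*, a ubiquitin ligase that binds titin (mean of 46.0 FPKM with MEKi against 35.1 FPKM without, log2 fold change 0.40, limma adjusted p = 0.481), *Cdh2*, N-cadherin (log2 fold change 0.35, limma adjusted p = 0.563), and *Ctnnb1*, β-catenin (log2 fold change 0.25, limma adjusted p = 0.673). *Cdh2* and *Ctnnb1*, whose products form the complex that the Xin-repeat proteins sit beside, had means of 20.7 and 46.7 FPKM with MEKi against 16.4 and 39.7 FPKM without.

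Relatives by domain or family, mainly of the LIM, ankyrin and nebulin families (14 of 17 past the filter), were lower in 4 and higher in 10 cases, with a median of 0.043. They were lower in 10 with a median of −0.068 on the cardiomyocyte-marker scale, and higher in 11 with a median of 0.12 on the TPM scale. *Lmcd1*, a LIM protein and transcriptional cofactor, was measured at 19.8 ± 3.66 FPKM with MEKi against 24.7 ± 3.45 FPKM without (SD, n = 5 each; log2 fold change −0.32, limma adjusted p = 0.619). *Nebl* and *Ankrd39* had log2 fold changes of 0.20 and 0.21 (limma adjusted p = 0.757 and 0.775). Of 12 other readouts of stretch and load, 10 passed the filter, 6 lower and 4 higher, with a median of −0.086. It was −0.20 with 8 lower on the cardiomyocyte-marker scale and −0.0078 with 5 lower on the TPM scale. *Cyr61*, a target of the YAP and TEAD factors, was 0.38 higher on the log2 scale (limma adjusted p = 0.543), *Timp1* −0.53 (limma adjusted p = 0.670) and *Rcan1* −0.17 (limma adjusted p = 0.798).

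The regulators, 17 genes for transcription factors, cofactors and LATS kinases of the stretch response, all passed the filter. Of these, 15 (the LATS kinases among them) had a higher and 2 a lower mean log2 level in MEKi hearts, with a median of 0.092. *Nkx2-5*, a homeobox factor of heart muscle, was at 51.6, 55.1, 51.6, 42.5 and 43.9 FPKM in vehicle hearts 1 to 5 and at 58.2, 57.4, 65.4, 60.0 and 59.2 FPKM in MEKi hearts 1 to 5. *Mef2a* was at 5.97, 7.02, 7.47, 6.31 and 6.19 FPKM in vehicle hearts 1 to 5 and at 7.76, 7.60, 8.07, 8.06 and 9.33 FPKM in MEKi hearts 1 to 5. All MEKi hearts were above all vehicle hearts for both genes, as was the case, in either direction, for 1.64% of genes tested. Their log2 fold changes were 0.30 (SE 0.0919) and 0.31 (SE 0.0947), each with a limma adjusted p of 0.461. *Yap1* followed at 0.17 (limma adjusted p = 0.774). Scaled to the cardiomyocyte markers, 8 of the 17 regulators were higher and 9 lower with a median of −0.018, and on the TPM scale 16 were higher with a median of 0.17, while *Nkx2-5* and *Mef2a* were at 0.19 and 0.20 when scaled to the markers.

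**Figure D4:**
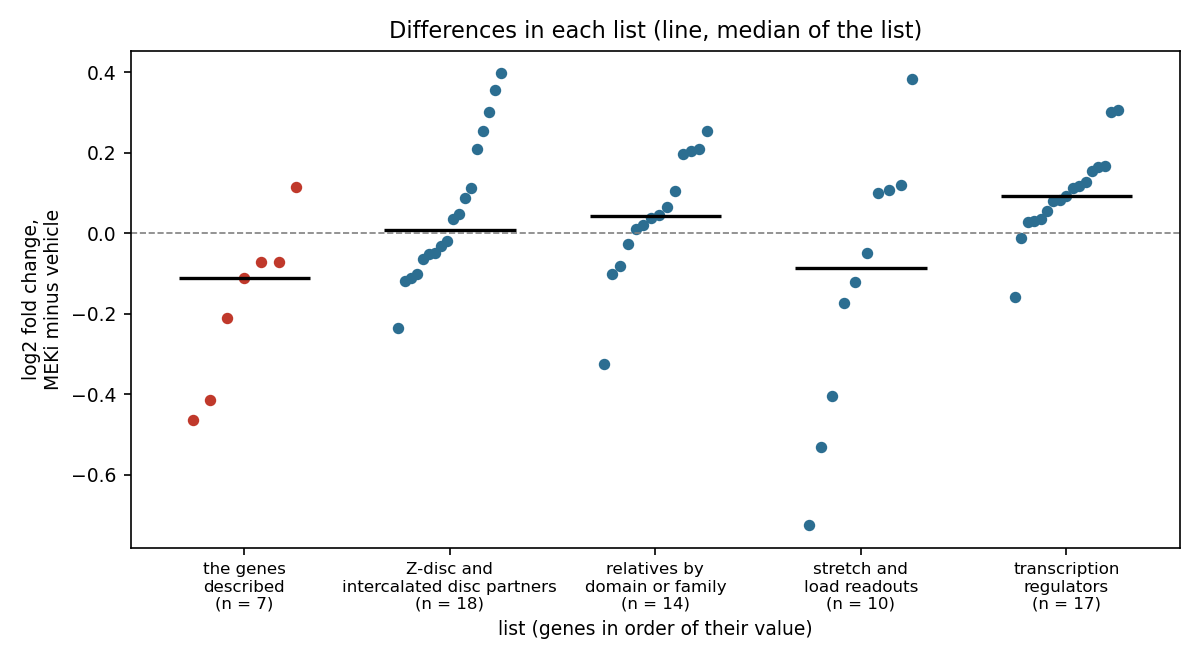
Log2 fold change, MEKi minus vehicle (vertical axis), of each tested gene of the set (red) and of the 4 lists (blue), in order of value within each list, with the median as a line. The medians are −0.11 for the set, 0.0077 for partners, 0.043 for relatives, −0.086 for load readouts and 0.092 for regulators.

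Cardiomyocyte markers had a median log2 fold change of 0.15, with 6 of 7 higher in MEKi hearts and 0 past the adjusted threshold. All 4 macrophage markers and all 4 endothelial markers tested had lower estimates with MEKi, as 6 of the 7 members did, with medians of −0.32 and −0.14 and 0 past the adjusted threshold. Macrophage markers summed to between 91.5 and 169 FPKM in the vehicle group and between 91.8 and 111 FPKM in the MEKi group, and endothelial markers to between 86.3 and 138 FPKM and between 84.8 and 104 FPKM. Their part in the members' levels was not tested. Relative to the 7 cardiomyocyte markers, the estimates were −0.57 for *Xirp2*, −0.52 for *Ankrd1*, −0.32 for *Nrap* and 0.0035 for *Fhl2*, on a scale that moved the median of all genes to −0.096. The first 3 of the 7 members tested then had an unadjusted limma p under 0.05, as did 863 of all 12602 genes on this scale. Their limma adjusted p was 0.382, 0.697 and 0.707. On the TPM scale, which moved the median of all genes to 0.088, *Xirp2* was at −0.39, *Ankrd1* at −0.34 and *Nrap* at −0.13, and the estimates of *Ankrd23* and *Csrp3* turned to 0.0049 and 0.0076.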

How the data were processed

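Messenger RNA of 5 vehicle and 5 MEKi hearts was selected with poly-T beads, and cDNA was primed with random hexamers. Per the labels, the processing notes name fastp, STAR 2.5 and HTSeq 0.6.1 with build mm10, without roles; the annotation release and the strand setting are not given in the sources used here. The authors deposited FPKM with gene lengths and coordinates for 54532 genes. Coordinates matched GENCODE M21 for 98.3% of the 54495 genes found there. Each FPKM times its gene's length gave a whole number of steps in every heart (tolerance 0.1), from which fragments and depth were taken.

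Groups came from the labels. The 12602 genes whose mean over 10 hearts reached 0.5 FPKM were fitted on the log2(FPKM + 0.1) scale (R 4.3.3, limma 3.58.1: lmFit, trended eBayes, two-sided, Benjamini-Hochberg, threshold 0.05), after a test on simulated data. That test, at a dispersion of 0.03, recovered 23 of 200 changes of 1.5-fold (11.5%) and 173 of 200 of 2-fold (86.5%). At that dispersion, changes of 1.5-fold or less would mostly be missed. Single values and ratios used exact permutation over 252 assignments, and correlations 100000 permutations, in Python 3.11.15 with scipy 1.17.1. Named were all members, the 3 genes with the smallest p of each list (and any past the threshold), and the 3 genes most like each member by Pearson r. Genes outside these rules stand only beside a member's result. *Nppa*, *Nppb*, *Gm42417*, the sex-linked genes and the skeletal muscle markers are of this kind. The members and lists were chosen with earlier results of these data known. Alternatives were pseudocounts of 1 and 0.01, no filter, a mean of at least 5 FPKM, TPM, quantile and cardiomyocyte-marker scaling, eBayes without a trend, array weights, a replicate block, no X, Y or mitochondrial genes, voom on the recovered fragments, each heart left out, and 3 hearts left out together.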

Additional observations from a re-analysis of the deposited data

Results flagged for a closer look

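Of 46 groups of 5 values examined (each member, the 3 ratios and the summed lists, in either treatment group), 5 held a heart whose gap to its nearest neighbour exceeded Dixon's 95% limit, where chance would give about 2.3. MEKi heart 2 was set apart for *Xirp2*, at 25.1 FPKM against 20.4 to 21.4 FPKM in the other MEKi hearts. In the same heart the atrial markers summed to 740 FPKM against 17.5 to 23.8 FPKM in the other MEKi hearts, and the adipocyte markers to 89.6 FPKM against 5.29 to 14.1 FPKM. Their part in its *Xirp2* level was not tested, and the log2 fold change of *Xirp2* was −0.52 without this heart. In vehicle heart 4 the load transcripts summed to 3837 FPKM against 1614 to 1930 FPKM in the other vehicle hearts. Of this sum, 1298 and 1379 FPKM were *Nppa* and *Nppb*, and 5 of the 10 load transcripts tested were highest in this heart. The adipocyte markers summed to 92.0 FPKM in vehicle heart 4, above their sum in MEKi heart 2. In vehicle heart 5 the fibroblast markers summed to 223 FPKM against 141 to 161 FPKM.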

How the results depend on the processing

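With limma, 0 members had an adjusted p under 0.05 in the main comparison and in all 23 alternatives, voom included. Of all 12602 genes, 960 had an unadjusted limma p under 0.05 in the main comparison. The count was between 771 and 1259 in the alternatives that tested the same 12602 genes. Beside these, 1 to 3 members had an unadjusted limma p under 0.05. *Xirp2* was among them in each alternative, *Ankrd1* joined it with cardiomyocyte-marker scaling, with voom and without vehicle heart 2, vehicle heart 5 or MEKi heart 2, and *Nrap* with cardiomyocyte-marker scaling, without vehicle heart 5 and without the 3 hearts. The estimates of *Xirp1*, *Xirp2*, *Ankrd1* and *Nrap* stayed below 0 in all 23, from −0.25 to −0.0037 for *Xirp1*. *Ankrd23* turned to 0.0049 on the TPM scale, and with single hearts left out it ran from −0.21 to 0.083, above 0 without vehicle heart 3 (0.052) or MEKi heart 4. *Csrp3* turned to 0.0076 on the TPM scale and ran from −0.14 to 0.014 with single hearts left out, above 0 without MEKi heart 5, and *Fhl2* turned to −0.029 without the 3 hearts; the cause was not tested. The median over members ran from −0.22 (without vehicle heart 5) to −0.092 (without MEKi heart 3) when single hearts were left out, and was −0.034 on the TPM scale and −0.25 without the 3 hearts. Over all genes, 10 passed the threshold. They included the Y-linked *Ddx3y*, *Eif2s3y*, *Uty* and *Gm29650* and the X-linked *Xist* and *Kdm6a*, and the rest were autosomal, on chromosomes 1 and 9. The count was 2 with a mean of at least 5 FPKM (fewer genes tested), 18 with array weights and 0 without X, Y and mitochondrial genes. The adjustment depends on all genes tested, so leaving out the sex-linked genes also changes the adjusted p of the autosomal ones. It was 5 with 3 hearts left out and between 5 (without vehicle heart 2) and 13 with single hearts left out. With the replicate number as a block, 4 passed. Same-numbered hearts did not deviate together (r between −0.154 and −0.0209), and no vehicle heart correlated best with the MEKi heart of its own number. The numbers thus gave no sign of pairing, which 5 hearts a group cannot exclude. The depth limits *Ankrd2* (0 to 11 fragments) and *Ankrd23* (113 to 253 fragments).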
